A study of Mus musculus with 1 sample.

Results

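The genes described here were 34 protein-coding genes that are known to be imprinted in the mouse, out of 22631 features counted in single cells of the fetal testis. They were found by gene symbol, by a rule that uses no measured value. In 20 of them the copy inherited from the father is the one expressed (*Dlk1*, *Rtl1*, *Dio3*, *Peg3*, *Usp29*, *Peg10*, *Sgce*, *Mest*, *Plagl1*, *Ndn*, *Magel2*, *Mkrn3*, *Snrpn*, *Nnat*, *Impact*, *Zrsr1*, *Nap1l5*, *Zdbf2*, *Rasgrf1* and *Inpp5f*). In the other 14 it is the maternal copy (*Zim1*, *Grb10*, *Cdkn1c*, *Phlda2*, *Slc22a18*, *Ube3a*, *Gnas*, *Asb4*, *Ppp1r9a*, *Ascl2*, *Commd1*, *Calcr*, *Copg2* and *Blcap*). All 34 had a row in the file, and 32 were seen in at least 10 of the kept cells. *Rasgrf1*, with 2 UMIs in germ-like and somatic cells together, and *Calcr*, with none, did not pass that limit and enter no count.

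Genomic imprinting is the expression of a gene from 1 parental copy only, set by DNA methylation that was laid down in the egg or the sperm and is kept in somatic cells. In the germ line these marks are erased in primordial germ cells and are laid down anew later, in the male during fetal life, so that fetal germ cells and the somatic cells around them differ in their imprints. Imprinted genes lie in clusters that share a control region, and many of them act on fetal growth, the placenta or the cell cycle. Counts of messenger RNA do not tell the parental copies apart, so the values below are levels and say nothing about which copy was read.

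The data came from 1 library of dissociated whole testes of fetuses at embryonic day 14.5, which the labels give as wild type. It was made from 12 controls, which the paper counts as whole testes, and their cells cannot be told apart. In the study's methods the controls carry the *loxP*-flanked *Nr5a1* alleles (L2/L2) and no Cre, on a mixed C57BL/6 and 129/SvPass background, and an earlier embryonic day is named as well. The library of mutants, which lack *Nr5a1* in Sertoli cells, was not analysed here. With 1 library there was no replicate, so no test was made and every interval below covers counting error only.

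The library held 72595083 UMIs (unique molecular indices, each standing for 1 captured molecule) in 5421 barcodes, and 3824 cells were kept, with a median of 12104 UMIs. The imprinted genes were left out when cells were clustered, so none of them defined a class. Clusters were named from markers as Sertoli-like (859 cells), germ-like (244), Leydig-like (225), interstitial-like (1427), peritubular myoid-like (547), coelomic epithelium-like (154) and perivascular-like (98). Endothelial-like, immune-like, rete testis-like and erythroid-like classes had 14 to 33 cells each, and 171 cells in 2 clusters were left unnamed. *Dazl* was at 976 CPM (counts scaled to a total of 1000000 UMIs per class) in the germ-like cells and at 3.39 CPM in the somatic cells. It is 1 of the markers that named the germ-like cells, so its level is no separate check of that label. The somatic cells were the 3409 cells of all named classes other than germ-like, and highest and lowest below refer to the 7 classes of at least 50 cells.

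For the genes that the results below turn on, the promoter windows of RefSeq (build GRCm38.p6, 250 bases before to 50 after a start) are printed 5′ to 3′ on the strand of the gene. *Peg3* and *Usp29* start head to head, and their windows share 263 bases on opposite strands. *Zim1* is their maternally expressed neighbour, *Mest* and *Nnat* stood far apart between germ-like and somatic cells, and the *Zdbf2* window shown held the most motif matches of all windows of the members. The *Peg3* and *Usp29* windows held no match, that of *Zim1* 1, the *Mest* window shown 2 and the *Zdbf2* window shown 3, all TGCCGC. Another *Zdbf2* window, which spans the annotated start of the gene (chr1:63273019-63273318), held no match. Nor did another *Mest* window (chr6:30733256-30733555). Capitals mark TGCCGC, the letters bound by ZFP57 (a zinc finger protein that protects imprints), and CCATNTT, a core of the YY1 motif, both searched on either strand.
Peg3, chr7:6730370-6730669, minus strand: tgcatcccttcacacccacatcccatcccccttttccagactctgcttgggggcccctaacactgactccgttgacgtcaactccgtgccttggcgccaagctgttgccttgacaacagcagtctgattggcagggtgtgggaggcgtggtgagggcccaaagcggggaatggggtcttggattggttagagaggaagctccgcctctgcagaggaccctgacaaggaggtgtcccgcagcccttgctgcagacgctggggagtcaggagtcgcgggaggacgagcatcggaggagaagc
Usp29, chr7:6730333-6730632, plus strand: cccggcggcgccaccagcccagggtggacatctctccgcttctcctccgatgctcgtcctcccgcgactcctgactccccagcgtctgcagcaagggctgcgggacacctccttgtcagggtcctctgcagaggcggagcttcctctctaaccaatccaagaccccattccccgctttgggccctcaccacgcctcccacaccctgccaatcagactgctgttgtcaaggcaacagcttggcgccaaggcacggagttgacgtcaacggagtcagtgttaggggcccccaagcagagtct
Zim1, chr7:6696383-6696682, minus strand: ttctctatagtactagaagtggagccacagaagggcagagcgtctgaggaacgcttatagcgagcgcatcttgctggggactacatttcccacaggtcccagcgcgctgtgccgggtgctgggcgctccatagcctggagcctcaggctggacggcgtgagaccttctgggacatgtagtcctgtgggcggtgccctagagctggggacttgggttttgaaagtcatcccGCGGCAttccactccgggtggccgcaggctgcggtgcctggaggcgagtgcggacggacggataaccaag
Mest, chr6:30737800-30738099, plus strand: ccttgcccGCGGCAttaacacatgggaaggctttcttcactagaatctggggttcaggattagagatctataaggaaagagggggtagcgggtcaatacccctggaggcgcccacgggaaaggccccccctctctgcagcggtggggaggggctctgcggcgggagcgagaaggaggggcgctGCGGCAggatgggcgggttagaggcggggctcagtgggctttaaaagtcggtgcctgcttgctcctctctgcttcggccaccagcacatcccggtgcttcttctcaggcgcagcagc
Nnat, chr2:157559828-157560127, plus strand: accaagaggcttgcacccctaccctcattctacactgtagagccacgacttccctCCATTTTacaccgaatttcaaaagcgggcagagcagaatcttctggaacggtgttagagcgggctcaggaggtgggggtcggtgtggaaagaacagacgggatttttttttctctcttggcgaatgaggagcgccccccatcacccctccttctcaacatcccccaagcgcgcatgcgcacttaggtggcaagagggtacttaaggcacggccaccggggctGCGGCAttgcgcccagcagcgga
Zdbf2, chr1:63200108-63200407, plus strand: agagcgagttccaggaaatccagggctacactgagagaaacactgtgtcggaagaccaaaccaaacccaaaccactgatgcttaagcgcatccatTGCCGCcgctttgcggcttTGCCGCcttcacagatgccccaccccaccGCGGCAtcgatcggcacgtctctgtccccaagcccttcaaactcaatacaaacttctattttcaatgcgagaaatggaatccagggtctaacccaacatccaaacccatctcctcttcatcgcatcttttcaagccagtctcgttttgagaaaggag
Windows were found for 29 members and not used for *Cdkn1c*, *Rtl1*, *Peg10*, *Sgce* and *Impact*. TGCCGC stood in 12 of the 43 windows of the members (27.9%) and in 11.6% of all 32851 windows. CCATNTT stood in 5 (11.6%) against 16.1% of all windows, but by gene the shares were close, at 17.2% of the members and 18.2% of all genes. The members' windows were also richer in CpG, with a median of 17 CpG against 7 in all windows, and their median GC content was 61% against 52.7%. The part of base content in the share of TGCCGC was not tested. By expressed copy, TGCCGC was found in 7 of 22 windows of paternally expressed genes (31.8%), where *Mest* counts with a pair of nearly identical windows, and in 5 of 21 windows of maternally expressed genes (23.8%). Counted by gene, the shares with TGCCGC were 37.5% of paternally and 38.5% of maternally expressed genes, against 13.1% of all genes.

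Germ-like cells, whose imprints are erased, were compared with somatic cells for the paternally and the maternally expressed genes apart. Germ-like cells had a median of 36293 UMIs, against 9246 (interstitial-like) to 18408 (Leydig-like) in the other classes of at least 50 cells. CPM is a share of the UMIs of a class, so lower here means a lower share and not fewer UMIs per cell. Of the 19 paternally expressed genes counted, 11 were at least 2-fold lower in germ-like than in somatic cells, 2 were at least 2-fold higher and 6 were neither, on CPM with 1 CPM added. Of all 15059 genes seen in at least 10 cells, 30.2% were at least 2-fold lower and 15.5% at least 2-fold higher, so that large differences between germ-like and somatic cells were common in general. The median log2 difference (germ-like minus somatic) of the paternally expressed genes was -1.33, and that of all genes was -0.31. Of the 13 maternally expressed genes counted, 6 were at least 2-fold lower and 4 at least 2-fold higher, with a median of -0.44. The paternally expressed genes that were lower were *Dlk1*, *Plagl1*, *Nnat*, *Mest*, *Sgce*, *Ndn*, *Peg3*, *Zdbf2*, *Peg10*, *Impact* and *Usp29*, and those that were higher were *Inpp5f* and *Dio3*. The maternally expressed genes that were lower were *Gnas*, *Grb10*, *Zim1*, *Ppp1r9a*, *Cdkn1c* and *Asb4* (-1.05, which lost the 2-fold call under 7 of 22 alternatives), and those that were higher were *Ascl2*, *Phlda2*, *Copg2* and *Slc22a18*. Imprinting of 8 of these genes is limited to some tissues or transcripts (*Inpp5f*, *Grb10*, *Ube3a*, *Gnas*, *Ppp1r9a*, *Commd1*, *Copg2* and *Blcap*). Without them, 3 of 6 maternally expressed genes were lower and 3 higher, and their median turned to 0.15. Of 18 paternally expressed genes, 11 were then lower and 1 higher, with a median of -1.54. The median of the 6 maternally expressed genes lay between *Asb4* (-1.05) and *Slc22a18* (1.35), so its sign rests on single genes. If *Ascl2*, described below as a factor of the trophoblast, were left out too, *Asb4* would be the middle gene.

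**Figure D1:**
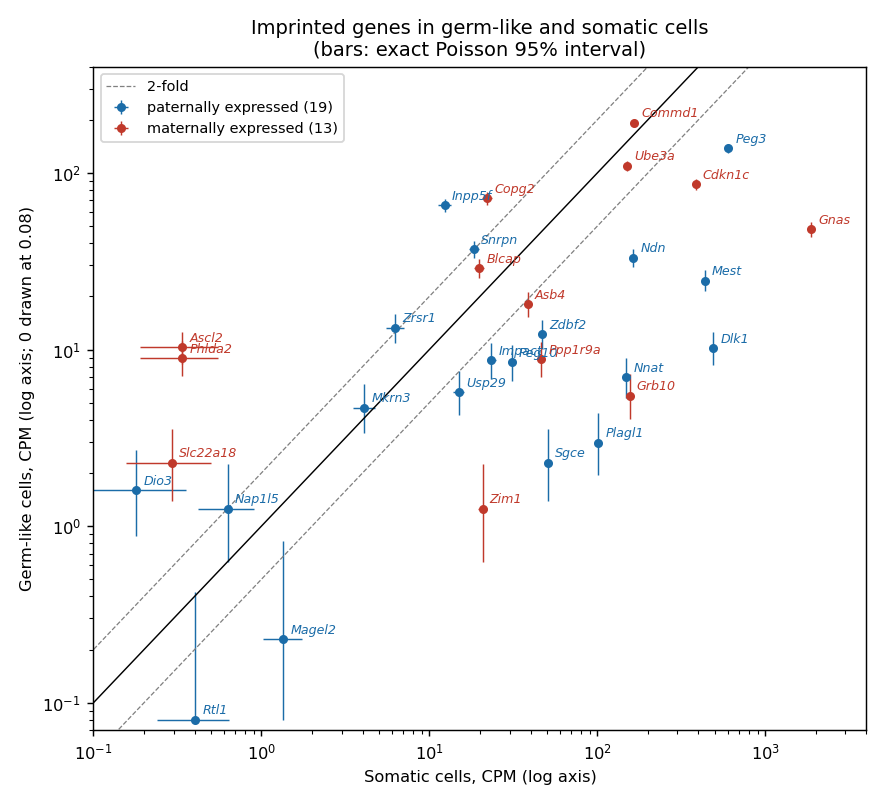
Level in germ-like cells (vertical axis) against level in somatic cells (horizontal axis), both in CPM on log axes, for the 32 imprinted genes seen in at least 10 cells. Blue points are paternally expressed and red points maternally expressed genes, bars are exact Poisson 95% intervals, the solid line marks equal levels and the dashed lines 2-fold. *Gnas*, *Dlk1*, *Plagl1* and *Grb10* lie far below the line, and *Ascl2* and *Phlda2* far above it.

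The choice of somatic cells set part of this result. Against Sertoli-like cells alone, 5 paternally expressed genes were at least 2-fold lower in germ-like cells and 5 at least 2-fold higher, with a median log2 difference of 0.00. That median is the value of *Rtl1*, which had no UMI in either class, and is not a measured equality. Of the maternally expressed genes 3 were then at least 2-fold lower and 6 at least 2-fold higher, with a median of 0.74. Of all genes, 25.4% were at least 2-fold lower in germ-like than in Sertoli-like cells and 17.1% at least 2-fold higher, with a median of -0.13. Sertoli-like cells, which enclose the germ cells and produce AMH, were low for several of the same genes. Of the 32 genes, 13 had their lowest level in germ-like cells among the 7 classes of at least 50 cells, where 31.7% of all genes had theirs, and 8 had their highest level there, against 27.1% of all genes. None of the paternally expressed genes and 1 of the maternally expressed genes, *Ppp1r9a*, was highest in Sertoli-like cells, where 19.5% of all genes were highest.

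**Figure D2:**
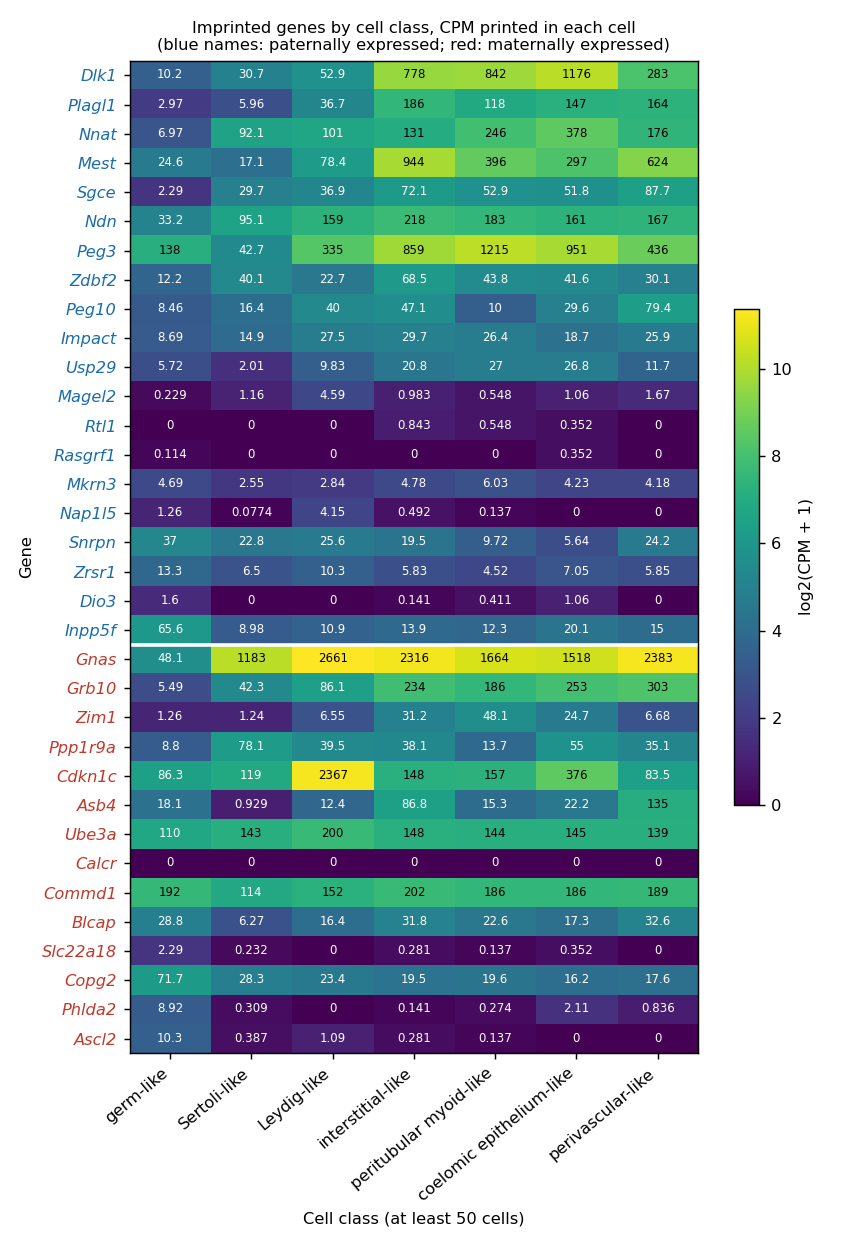
Level of each imprinted gene in the 7 classes of at least 50 cells, as CPM printed in each square and as colour on the log2(CPM + 1) scale. Genes are ordered within each parental group by the difference between germ-like and somatic cells. The first 3 columns, germ-like, Sertoli-like and Leydig-like, are darker than the stromal columns for *Dlk1*, *Plagl1* and *Mest*, and *Cdkn1c* stands out in Leydig-like cells at 2367 CPM.

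Free RNA in the suspension also gives UMIs in cells that do not express a gene, so markers of somatic cells were read in germ-like cells in the same way. The 37 somatic markers with at least 20 CPM in somatic cells stood in germ-like cells at a median of 1.58% of their somatic level, with an upper quartile of 3.73%. *Ptch1*, *Egfl7* and *Notch3* were the highest of them, at 53.6%, 49.8% and 36.1%, and *Ptch1* was higher in germ-like cells than in the peritubular myoid-like cells whose list it is on. The markers above that quartile were globins (*Hba-a1*, *Hba-a2*, *Hbb-bt* and *Hbb-y*), *Fdx1*, *Scarb1*, *Ptch1*, *Egfl7* and *Notch3*. *Dlk1* (2.08%), *Gnas* (2.56%), *Plagl1* (2.93%) and *Grb10* (3.52%) were at or below the upper quartile, as was *Rtl1*, which was at 0. By that limit alone their germ-like levels are read as background here and below, and the reading depends on the markers chosen. Whether free RNA gave the germ-like UMIs of *Dlk1*, *Gnas*, *Plagl1* and *Grb10* was not tested. The 8 interstitial markers stood in germ-like cells at 0.694% to 1.58% of their interstitial-like level. On that scale *Plagl1* (1.6%), *Gnas* (2.08%) and *Grb10* (2.35%) were above the range, and *Dlk1* (1.31%) was within it. By the median of the 37 markers, only 1 member, *Rtl1*, would be read as background. With doublets kept in, the log2 difference was -4.42 for *Gnas* in place of -5.26, and -4.76 for *Dlk1* in place of -5.45. *Nnat* (4.68%), *Sgce* (4.5%), *Mest* (5.65%) and *Zim1* (6.07%) were above the upper quartile by little, and *Peg3*, *Ndn*, *Cdkn1c*, *Peg10*, *Zdbf2*, *Ppp1r9a*, *Magel2*, *Impact*, *Usp29* and *Asb4* stood at 17% to 46.9%. By the whole range of the markers, which *Ptch1* set, 19 of the 32 members would be read as background, and 13 stood above it. In the other direction, 9 germ cell markers stood in somatic cells at a median of 0.874% and at most 2.92% of their germ-like level, and *Ascl2* (3.27%) and *Phlda2* (3.77%) were just above that.

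**Figure D3:**
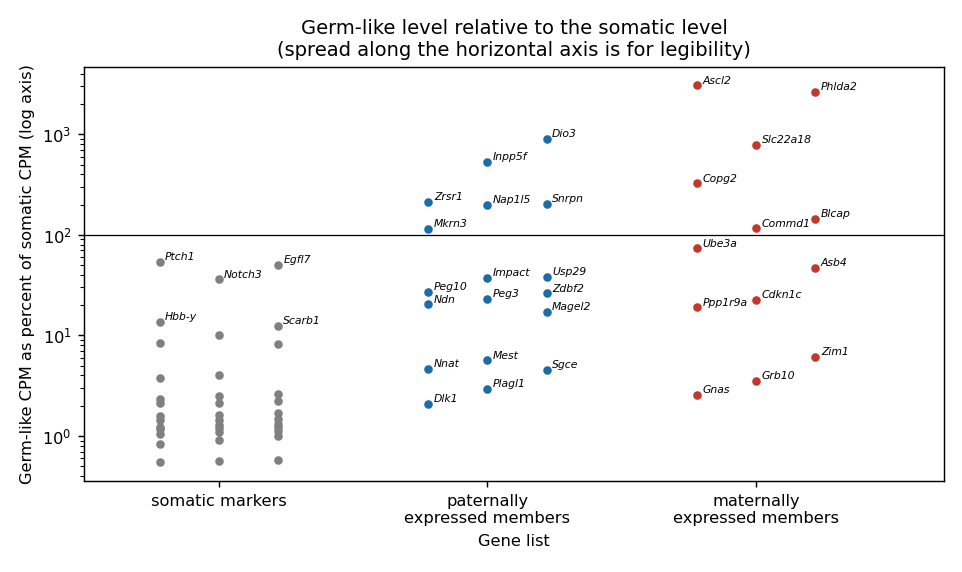
Germ-like level as percent of the somatic level (vertical log axis) for 37 somatic markers in grey, and for the imprinted genes by expressed copy, paternal in blue and maternal in red. *Rtl1*, at 0 in germ-like cells, is not drawn, the horizontal line marks 100%, and most markers lie below 3.73%, where *Dlk1*, *Gnas*, *Plagl1* and *Grb10* lie too.

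In the *Dlk1*-*Dio3* region, *Dlk1* (chr12:109452823-109463336, plus strand, GRCm38) encodes a membrane protein of the Notch ligand family that is found on stromal progenitors. Its level was 10.2 CPM in germ-like, 30.7 in Sertoli-like, 52.9 in Leydig-like, 283 in perivascular-like, 778 in interstitial-like, 842 in peritubular myoid-like and 1176 CPM in coelomic epithelium-like cells. The classes fell apart into 3 low and 4 high ones, and no neighbours in this order had overlapping intervals. The somatic level was 48.0-fold the germ-like one (95% interval 39.0 to 59.8), which is read as background and was 6.57 CPM in the 122 germ-like cells with the lower share of somatic marker UMIs. Those 122 cells were not evenly poorer in the markers. *Hbb-y* stood there at 5.09% of its level in all germ-like cells, *Nr2f2* at 38.3%, *Amh* at 65.1% and *Cyp17a1* at 100%. At 5000 UMIs per cell, 87.4% of interstitial-like and 5.35% of germ-like cells had a *Dlk1* UMI. *Rtl1*, a gene derived from a retrotransposon, had 18 UMIs in somatic cells (0.404 CPM) and none in germ-like cells, where the upper limit of 0.422 CPM is above the somatic level, so that no difference was detectable at this depth, and it was highest in interstitial-like cells (0.843 CPM). *Dio3*, the deiodinase that inactivates thyroid hormone, was rare and went the other way, with 14 UMIs in germ-like cells (1.6 CPM, 95% interval 0.875 to 2.69) and 8 in all somatic cells (0.1795 CPM).

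The *Peg3* region of chromosome 7 showed the closest likeness between neighbours. *Peg3*, a large zinc finger protein, was at 42.7 CPM in Sertoli-like, 138 in germ-like, 335 in Leydig-like, 436 in perivascular-like, 859 in interstitial-like, 951 in coelomic epithelium-like and 1215 CPM in peritubular myoid-like cells. *Usp29*, which belongs to the ubiquitin-specific protease family and starts within the window printed above for *Peg3*, had the same order of classes at lower levels, from 2.01 CPM in Sertoli-like and 5.72 in germ-like to 27.0 CPM in peritubular myoid-like cells. The maternally expressed *Zim1*, a zinc finger gene downstream of *Peg3*, was at 1.24 CPM in Sertoli-like, 1.26 in germ-like, 6.55 in Leydig-like, 6.68 in perivascular-like, 24.7 in coelomic epithelium-like, 31.2 in interstitial-like and 48.1 CPM in peritubular myoid-like cells. Over the 7 classes, Spearman's rho was 1 between *Peg3* and *Usp29* and 0.964 between each of them and *Zim1*. The points share 1 library and its free RNA. For *Usp29* the intervals of coelomic epithelium-like (21.1 to 33.5 CPM) and peritubular myoid-like cells (23.35 to 31.0 CPM) overlapped, so part of its order is not resolved. Genes of different regions were not compared in this way, and *Dlk1* on chromosome 12 was also lowest in germ-like and Sertoli-like cells. Against somatic cells, germ-like cells were 4.34-fold lower for *Peg3* (95% interval 4.1 to 4.6), 2.62-fold lower for *Usp29* (1.97 to 3.57) and 16.5-fold lower for *Zim1* (9.17 to 33.1). Sertoli-like cells were lower still than germ-like cells for *Peg3* and *Usp29*, and the log2 difference turned to 1.67 and 1.16 when they alone were the somatic cells. At 5000 UMIs per cell, a *Peg3* UMI was found in 43.2% of germ-like and 16.3% of Sertoli-like cells, against 98.3% of peritubular myoid-like cells.

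**Figure D4:**
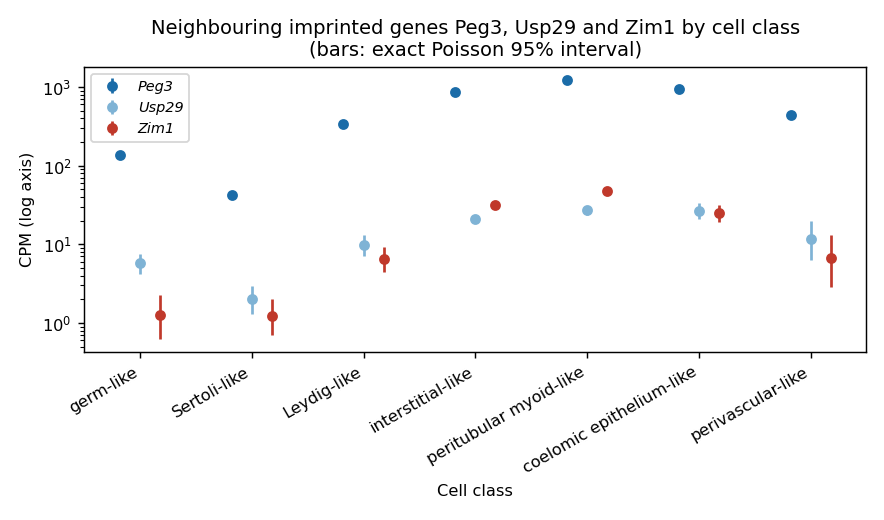
Levels of *Peg3*, *Usp29* (both blue, paternally expressed) and *Zim1* (red, maternally expressed) in CPM on a log axis for the 7 classes of at least 50 cells, with exact Poisson 95% intervals as bars. The 3 genes are lowest in germ-like and Sertoli-like cells and highest in peritubular myoid-like cells, where *Peg3* was at 1215 CPM.

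On chromosome 6, *Mest* and *Copg2* overlap on opposite strands and went in opposite directions. *Mest*, an enzyme of the alpha/beta hydrolase family known from fetal mesoderm, was at 17.1 CPM in Sertoli-like, 24.6 in germ-like, 78.4 in Leydig-like, 297 in coelomic epithelium-like, 396 in peritubular myoid-like, 624 in perivascular-like and 944 CPM in interstitial-like cells. Germ-like cells were 17.7-fold lower than somatic cells (95% interval 15.5 to 20.4). In the 122 germ-like cells named above the level was 13.2 CPM, that is 53.5% of the level in all germ-like cells. *Copg2*, a coat protein of vesicles in the secretory pathway, was highest in germ-like cells at 71.7 CPM, and lower in Sertoli-like (28.3), Leydig-like (23.4), peritubular myoid-like (19.6), interstitial-like (19.5), perivascular-like (17.6) and coelomic epithelium-like cells (16.2 CPM). The germ-like level of *Copg2* was 3.25-fold that of somatic cells (2.94 to 3.6), and the somatic classes overlapped from each to the next. Whether counting used the strand is not given in the sources used here, so reads from the overlapping ends may be shared.

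The *Peg10*-*Sgce* region, also on chromosome 6, held genes with unlike patterns. *Peg10*, derived from a retrotransposon and needed for the placenta, was at 8.46 CPM in germ-like, 10.0 in peritubular myoid-like, 16.4 in Sertoli-like, 29.6 in coelomic epithelium-like, 40.0 in Leydig-like, 47.1 in interstitial-like and 79.4 CPM in perivascular-like cells. *Sgce*, the epsilon-sarcoglycan of the membrane complex around dystrophin, was at 2.29 CPM in germ-like cells and above that in every other class, with 29.7 in Sertoli-like, 36.9 in Leydig-like, 51.8 in coelomic epithelium-like, 52.9 in peritubular myoid-like, 72.1 in interstitial-like and 87.7 CPM in perivascular-like cells. Germ-like cells were 22.2-fold lower than somatic cells for *Sgce* (95% interval 14.4 to 36.5) and 3.66-fold lower for *Peg10* (2.9 to 4.69).

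The 2 maternally expressed genes of this region differed in the classes where they were low. *Asb4*, a substrate adaptor of ubiquitin ligases, was nearly absent from Sertoli-like cells (0.929 CPM) and was at 12.4 CPM in Leydig-like, 15.3 in peritubular myoid-like, 18.1 in germ-like, 22.2 in coelomic epithelium-like, 86.8 in interstitial-like and 135 CPM in perivascular-like cells. Its germ-like level was 2.13-fold lower than the somatic level (95% interval 1.81 to 2.53), and against Sertoli-like cells alone the log2 difference was 3.31 in the other direction. *Ppp1r9a*, a neuronal scaffold protein that binds actin and protein phosphatase 1, was highest in Sertoli-like cells at 78.1 CPM, followed by coelomic epithelium-like (55.0), Leydig-like (39.5), interstitial-like (38.1), perivascular-like (35.1), peritubular myoid-like (13.7) and germ-like cells (8.8 CPM). For *Ppp1r9a*, germ-like cells were 5.27-fold lower than somatic cells (4.19 to 6.7). Imprinting of *Ppp1r9a* is limited to some tissues.

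In the Prader-Willi and Angelman region of chromosome 7, *Ndn*, *Snrpn* and *Ube3a* were seen at levels that allow a comparison. *Ndn*, a MAGE family protein that holds back growth, was at 33.2 CPM in germ-like, 95.1 in Sertoli-like, 159 in Leydig-like, 161 in coelomic epithelium-like, 167 in perivascular-like, 183 in peritubular myoid-like and 218 CPM in interstitial-like cells, and the germ-like level was 4.92-fold lower than the somatic level (95% interval 4.38 to 5.55). In the 122 germ-like cells with the lower share of somatic markers, *Ndn* was at 37.9 CPM. *Snrpn*, a component of splicing complexes, went the other way with 37.05 CPM in germ-like and 18.3 CPM in somatic cells (2.02-fold, 1.77 to 2.3), and the log2 difference of 0.98 with 1 CPM added missed the 2-fold limit. The germ-like level of *Snrpn* was 19.7 CPM in those 122 cells, and the row shares its locus with *Snurf*, which the annotation places on the same strand.

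*Ube3a*, the ubiquitin ligase that is imprinted mainly in neurons, varied least in this region, from 110 CPM in germ-like to 200 CPM in Leydig-like cells. Its other levels were 139 CPM in perivascular-like, 143 in Sertoli-like, 144 in peritubular myoid-like, 145 in coelomic epithelium-like and 148 CPM in interstitial-like cells, and those 5 overlapped from each to the next. The germ-like level was 1.36-fold lower than the somatic level (95% interval 1.27 to 1.46). *Magel2*, another MAGE family gene, had 2 UMIs in germ-like cells (0.229 CPM) against 1.35 CPM in somatic cells, and was highest in Leydig-like cells (4.59 CPM). *Mkrn3*, a ring finger gene known for its role in the timing of puberty, was at 4.69 CPM in germ-like and 4.08 CPM in somatic cells with a ratio of 1.15 (0.797 to 1.62), and was highest in peritubular myoid-like cells (6.03 CPM).

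Other paternally expressed genes stand alone or in pairs. *Plagl1*, a zinc finger factor that restrains the cell cycle and is known to act on other imprinted genes, was at 2.97 CPM in germ-like, 5.96 in Sertoli-like, 36.7 in Leydig-like, 118 in peritubular myoid-like, 147 in coelomic epithelium-like, 164 in perivascular-like and 186 CPM in interstitial-like cells. The somatic level was 34.1-fold the germ-like one (95% interval 23.3 to 52.3), which was 1.97 CPM in the 122 germ-like cells with the lower share of somatic markers. The level in all germ-like cells is read as background by the upper quartile of the somatic markers, but lay just above the range of the interstitial ones.

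*Nnat*, a small membrane protein of the endoplasmic reticulum, lies inside *Blcap* on the opposite strand, and its window above held 1 match of each motif. Its level was 6.97 CPM in germ-like, 92.1 in Sertoli-like, 101 in Leydig-like, 131 in interstitial-like, 175.5 in perivascular-like, 246 in peritubular myoid-like and 378.5 CPM in coelomic epithelium-like cells, and germ-like cells were 21.4-fold lower than somatic cells (95% interval 16.6 to 28.0). *Blcap* itself, imprinted in some tissues only, was at 28.8 CPM in germ-like and 19.8 CPM in somatic cells (1.45-fold, 1.26 to 1.67), and was highest in perivascular-like cells (32.6 CPM), so that against interstitial-like cells alone its log2 difference was -0.14. *Zdbf2*, a zinc finger gene, was at 12.2 CPM in germ-like, 22.7 in Leydig-like, 30.1 in perivascular-like, 40.1 in Sertoli-like, 41.6 in coelomic epithelium-like, 43.8 in peritubular myoid-like and 68.5 CPM in interstitial-like cells. It was 3.83-fold lower in germ-like than in somatic cells (3.16 to 4.7), and *Impact*, a regulator of the response to amino acid shortage, was 2.69-fold lower (2.13 to 3.44), with 8.69 CPM in germ-like, 23.3 in somatic and 29.7 CPM in interstitial-like cells, where it was highest.

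*Zrsr1* and *Nap1l5* arose by retrotransposition into other genes, and both gave low values. *Zrsr1*, a splicing factor gene that lies within *Commd1* on the opposite strand, was highest in germ-like cells with 13.3 CPM against 6.24 CPM in somatic cells (2.13-fold, 95% interval 1.7 to 2.65), and its log2 difference of 0.98 with 1 CPM added was just under the limit. *Commd1*, a protein of copper metabolism imprinted in some tissues only, was at 192 CPM in germ-like, 114 in Sertoli-like, 152 in Leydig-like, 186 in coelomic epithelium-like and in peritubular myoid-like, 189 in perivascular-like and 202 CPM in interstitial-like cells. The ratio of germ-like to somatic cells was 1.16 for *Commd1* (1.1 to 1.22), and its log2 difference was -0.07 against interstitial-like cells alone. *Nap1l5*, a nucleosome assembly gene inside *Herc3*, had 11 UMIs in germ-like cells (1.26 CPM) and 28 in somatic cells (0.628 CPM), and was highest in Leydig-like cells (4.15 CPM).

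*Inpp5f* and *Rasgrf1* are imprinted in some tissues or transcripts only. *Inpp5f*, a phosphoinositide phosphatase, was highest in germ-like cells at 65.6 CPM, above coelomic epithelium-like (20.1), perivascular-like (15.0), interstitial-like (13.9), peritubular myoid-like (12.3), Leydig-like (10.9) and Sertoli-like cells (8.98 CPM). The germ-like level was 5.32-fold the somatic level (95% interval 4.72 to 5.99), none of the 6 somatic classes overlapped with it, and 32.5% of germ-like against 5.56% of somatic cells had a UMI at 5000 UMIs per cell. *Rasgrf1*, an exchange factor of Ras proteins, had 1 UMI in germ-like and 1 in somatic cells (0.114 and 0.0224 CPM), and was highest in coelomic epithelium-like cells (0.352 CPM).

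Of the maternally expressed genes, *Gnas* (chr2:174284320-174346744, plus strand, GRCm38), which encodes the stimulatory G protein subunit that couples hormone receptors to cyclic AMP, was the one with the lowest germ-like level relative to somatic cells. It was at 48.1 CPM in germ-like, 1183 in Sertoli-like, 1518 in coelomic epithelium-like, 1664 in peritubular myoid-like, 2316 in interstitial-like, 2383 in perivascular-like and 2661 CPM in Leydig-like cells. A *Gnas* UMI was found in 99.8% of somatic and 16.0% of germ-like cells at 5000 UMIs per cell, and the somatic level was 39.1-fold the germ-like one (95% interval 35.5 to 43.1). That germ-like level was 21.7 CPM in the 122 germ-like cells with the lower share of somatic markers, where the log2 difference was -6.37. The level in all germ-like cells is read as background by the upper quartile of the somatic markers, but lay above the range of the interstitial ones. The locus has several promoters, of which only some are imprinted, and counts at the 3′ end do not separate their transcripts. *Grb10*, an adaptor that restrains insulin and growth factor signalling, followed with 5.49 CPM in germ-like, 42.3 in Sertoli-like, 86.1 in Leydig-like, 186 in peritubular myoid-like, 234 in interstitial-like, 253 in coelomic epithelium-like and 303 CPM in perivascular-like cells. Its somatic level was 28.4-fold the germ-like one (21.4 to 38.5), which was 3.29 CPM in those 122 cells. For *Grb10* too, the level in all germ-like cells is read as background by that quartile, but lay above the range of the interstitial markers. *Calcr*, the calcitonin receptor, had no UMI in germ-like or somatic cells, which allows up to 0.343 CPM in germ-like and 0.0673 CPM in somatic cells (3 counts).

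The *Kcnq1* domain of chromosome 7 held both directions. *Cdkn1c* (chr7:143458339-143461050, minus strand, GRCm38), an inhibitor of cyclin-dependent kinases, was at 83.55 CPM in perivascular-like, 86.3 in germ-like, 119 in Sertoli-like, 148 in interstitial-like, 157 in peritubular myoid-like, 376 in coelomic epithelium-like and 2367 CPM in Leydig-like cells. Leydig-like cells held 10836 of the 17169 *Cdkn1c* UMIs of the somatic cells, which were at 385 CPM, and the 4.46-fold lower level of germ-like cells (95% interval 4.15 to 4.81) became a log2 difference of -0.77 against interstitial-like cells alone and -0.46 against Sertoli-like cells alone. *Ascl2*, a basic helix-loop-helix factor of the trophoblast, was at 10.3 CPM in germ-like cells (90 UMIs) and 0.337 CPM in somatic cells (15 UMIs), 30.6-fold higher (17.6 to 56.9). *Phlda2*, a growth-restricting gene of the placenta, was 26.5-fold higher (15.1 to 49.6) with 8.92 CPM in germ-like and 0.337 CPM in somatic cells, and *Slc22a18*, a transporter gene beside it, 7.84-fold higher (3.71 to 17.1) with 2.29 and 0.292 CPM. Among classes of at least 50 cells all 3 were highest in germ-like cells (*Slc22a18* was at 8.32 CPM, from 3 UMIs, in the 25 immune-like cells), where 6.58%, 5.76% and 2.47% of cells, respectively, had a UMI at 5000 UMIs per cell, against 0.213%, 0.243% and 0.122% of somatic cells. In the 122 germ-like cells with the lower share of somatic markers, *Phlda2* was at 12.7 CPM and *Slc22a18* at 3.94 CPM, while *Ascl2* was at 5.48 CPM.

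*Cdkn1c* also differed with the cell-cycle phase, which was called after each cell was thinned to 5000 UMIs. In Sertoli-like cells it was at 181 CPM in 462 cells called G1 and at 58.3 CPM in 383 cells called S or G2/M, a ratio of 3.1 (95% interval 2.76 to 3.49). It was the only member at least 2-fold higher in G1 in that class, where 0.677% of all genes were, and *Usp29* the only one at least 2-fold lower, against 3.55%. With phases called at 3000 UMIs *Cdkn1c* had a ratio of 3.39 in Sertoli-like cells, *Usp29* lost its call (log2 difference -0.51), and *Magel2* (1.03) and *Asb4* (1.28), both rare there, passed 2-fold. No member passed 2-fold in either direction in interstitial-like cells (0.551% and 3.68% of all genes) or in peritubular myoid-like cells (1.21% and 4%). In germ-like cells *Dlk1* and *Grb10*, both at levels read as background above, were higher in G1 and none was lower (1.33% and 1.54% of all genes), and at 3000 UMIs both calls were lost (0.54 and 0.62) and *Ppp1r9a* passed (1.01). In Leydig-like cells *Mkrn3*, *Nap1l5*, *Cdkn1c* and *Ppp1r9a* were higher and *Dlk1*, *Peg3*, *Usp29*, *Mest*, *Nnat* and *Zim1* lower in G1, where 12.1% and 12.9% of all genes were. Of these, *Mkrn3* (13 UMIs in the class) and *Nap1l5* (19 UMIs) were rare, and the lower limits of their ratios were 0.303 and 0.464. In coelomic epithelium-like cells *Dio3* and *Phlda2* were higher and none was lower (4.67% and 8.69% of all genes). Both were rare there, with 3 and 6 UMIs in the class, and the intervals of their ratios held 1 (0.307 to 348 and 0.844 to 65.1). The ratio of *Cdkn1c* was 1.78 (1.63 to 1.94) in interstitial-like and 1.66 (1.48 to 1.87) in peritubular myoid-like cells, and 2.88 (2.59 to 3.2) in Leydig-like cells, of which only 21 were called S or G2/M. In germ-like cells the order was reversed, with 69.1 CPM in G1 and 94.0 CPM in S or G2/M (0.736, 0.62 to 0.869), and in coelomic epithelium-like cells the interval of the ratio held 1 (0.907, 0.784 to 1.05). The germ-like calls were 76 cells in G1 and 167 in S or G2/M, whereas the paper describes germ cells of controls as becoming mitotically quiescent. Whether the phase calls hold in germ-like cells was not tested. *Plagl1* had ratios of 1.13 (0.704 to 1.83) in Sertoli-like, 1.15 (1.06 to 1.24) in interstitial-like and 1.9 (0.802 to 4.42) in germ-like cells, where calls at 3000 UMIs gave 0.504 (0.149 to 1.38). Over the members, the median log2 difference between G1 and S or G2/M was 0.01 in Sertoli-like, 0.17 in interstitial-like and -0.13 in germ-like cells, against 0.00, 0.01 and 0.00 over all genes.

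**Figure D5:**
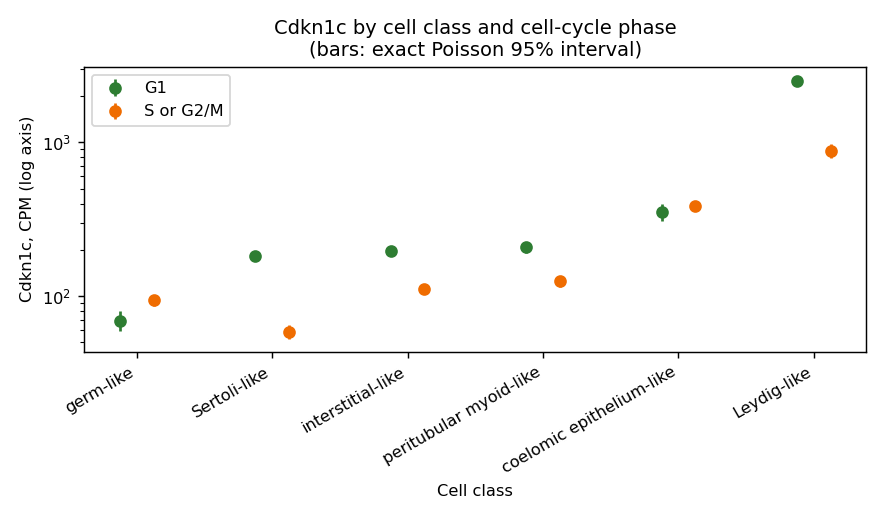
Level of *Cdkn1c* in CPM on a log axis, in cells called G1 (green) and S or G2/M (orange), by class, with exact Poisson 95% intervals as bars. Sertoli-like cells show the widest gap, 181 against 58.3 CPM, germ-like cells lie in the reverse order, and Leydig-like cells are highest in both phases.

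Across classes, the somatic cells were not alike for these genes. For the 18 members that reached 50 CPM in a class, 43 of the 108 pairs of neighbouring classes in the order of levels had overlapping intervals. At levels of at least 50 CPM the upper end of an interval was at most 22.3% above the level. The share of overlapping pairs was not computed over all genes of like level. This count and the overlaps given above for single genes are therefore not read as particular to imprinted genes. The paternally expressed genes were most often highest in interstitial-like cells (6 of 19, where 9.01% of all genes were highest), followed by germ-like (4, against 27.1% of all genes) and peritubular myoid-like cells (3, against 6.34%). The maternally expressed genes were highest in germ-like cells (4 of 13, against the same 27.1%) and in Leydig-like and perivascular-like cells (3 each), where 13.8% and 12.2% of all genes were highest. Markers of interstitial cells stood in Sertoli-like cells at a median of 0.932% of their interstitial-like level (0.571% to 25.4%) and in germ-like cells at 0.885% (0.694% to 1.58%). For comparison, *Mest* was at 1.81% (Sertoli-like) and 2.6% (germ-like), *Plagl1* at 3.2% and 1.6%, and *Dlk1* at 3.95% and 1.31%. All 3 Sertoli-like values lie above the median of the markers there, but within their wide range. Of the germ-like values, that of *Dlk1* lies within the range there, that of *Plagl1* just above it and that of *Mest* above it. *Grb10* (2.35%) and *Gnas* (2.08%) also lie above the range in germ-like cells. In the 33 endothelial-like cells, *Gnas* was at 6085 CPM and *Mest* at 1600 CPM, above every class of at least 50 cells, whereas *Peg3* was at 16.8 CPM.

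Other imprinted genes, from a list of 24, were read in the same way. Of these, 16 had a row and 14 were seen in at least 10 cells. Of the 14, 6 were at least 2-fold lower in germ-like than in somatic cells, 2 were at least 2-fold higher and 6 were neither. Their median log2 difference was -0.88, against 30.2% lower, 15.5% higher and a median of -0.31 over all genes. By expressed copy, the 5 paternally expressed ones had a median of -0.87 (2 lower, 1 higher). The 9 maternally expressed ones had a median of -0.89 (4 lower, 1 higher). The gap between the medians of the members (-1.33 and -0.44) was thus not seen in this list. Unlike the members, this list was not split by whether imprinting is limited to some tissues or transcripts, so the 2 lists may be unlike sets. Lower were the growth factor gene *Igf2* (0.229 against 6.15 CPM), its receptor *Igf2r* (20.1 against 66.1 CPM), *Cd81*, a tetraspanin (39.1 against 835 CPM), *Peg12*, *Pon3* and *H13*. Higher were *Sfmbt2*, a Polycomb protein (17.5 against 4.555 CPM), and *Th*, the tyrosine hydroxylase (2.86 against 0.0224 CPM). The non-coding RNAs of these loci, such as *H19* and *Meg3*, were not analysed here.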

How the data were processed

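RNA of single cells was measured with the 10x Genomics Chromium 3′ kit in 1 control library. The deposited matrix holds raw UMI counts of genes in barcodes; for these the authors aligned reads with Cell Ranger to mm10 (GRCm38) plus the YFP reporter. The submitters' processing notes name Cell Ranger 3.0.2 and 3.1.0, and the study's methods a later version. Here, barcodes under 200 genes were dropped. Doublets were scored against artificial ones (25% of the merged data, share among the nearest 2%), and 204 (4.04%) were removed. Another 1021 cells were removed as outliers, by more than 3 median absolute deviations, in UMIs or genes (both as logs), or in the shares of mitochondrial or ribosomal-protein UMIs. The imprinted genes were then set aside and cells clustered in R 4.3.3 (Seurat 5.3.0, sctransform 0.4.2), with 3000 variable genes, 30 components and a resolution of 0.8, after regression on phase scores and the mitochondrial share. A cluster took the class with the highest mean log2 ratio of its markers against all other cells (5 CPM added) if that was at least 0.5 with 3 markers in 25% of its cells, a limit chosen with the clusters known, unless its median UMI count was under 33.3% of that of all kept cells with none of the class's listed markers among its 10 leading genes. That left a cluster of 64 cells nearest to Sertoli cells unnamed (median 3104 UMIs), although *Tesc* and *Gstm6*, which lead the Sertoli-like cluster and are not on the list, led it too. Another of 107 cells was led by *Nts*, *Smoc2* and *Vsnl1* and stayed unnamed.

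Levels are CPM of UMIs summed over a class, with exact Poisson 95% intervals. Ratios have exact conditional binomial intervals and shares exact Clopper-Pearson ones, computed with Python 3.11.15 and scipy 1.17.1. All cover counting error only. Called means 2-fold on CPM with 1 CPM added. Every member is named, and those that reached 50 CPM in a class of at least 50 cells have their level in each such class. For shares and phases each cell was thinned to 5000 UMIs (3000 as an alternative), which left out 1 germ-like and 117 somatic cells. Positions and overlaps are from GENCODE on GRCm38, and promoter windows from RefSeq. The members, the other imprinted genes, the markers and the comparisons were chosen with earlier results of these data known. The ratio step was tested on simulated data of germ-like against somatic cells with 12557 genes. There, 100 of 100 genes raised 4-fold, 97 of 100 lowered 4-fold and 0% of the unchanged ones were called. The simulation held counting error only, without free RNA, and only genes with at least 50 somatic UMIs. It therefore does not cover *Dio3* (8 somatic UMIs), *Slc22a18* (13), *Phlda2* (15) and *Ascl2* (15), which were called higher.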

Additional observations from a re-analysis of the deposited data

How the results depend on the processing

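The comparison of germ-like with somatic cells was repeated under 19 alternatives, and under 3 more that were chosen after seeing the data (a class name from a limit of 1, unnamed clusters among the somatic cells, and interstitial-like cells alone). Against Sertoli-like cells alone, 5 paternally expressed genes were at least 2-fold lower and 5 higher, with a median log2 difference of 0.00, the value of *Rtl1*, which had no UMI in either class. Of the maternally expressed ones 3 were then lower and 6 higher, with a median of 0.74, and log2 differences changed sign for *Peg3* (1.67), *Usp29* (1.16), *Mest* (0.50), *Zim1* (0.013) and *Asb4* (3.31). The number of paternally expressed genes at least 2-fold higher, 2 as reported, was 4 with median-of-ratios size factors, with mitochondrial and ribosomal-protein genes left out of the totals or with 0.1 CPM added, and 1 with 5 CPM added, where their median was -1.05. The median of the maternally expressed genes was -0.18 with the size factors, -0.30 without those genes in the totals and -0.22 with no filter on low values. Among genes within 2-fold, *Mkrn3* (-0.61) and *Commd1* (-0.00) were below 0 when cells were thinned to 5000 UMIs, and *Commd1* (-0.07) and *Blcap* (-0.14) against interstitial-like cells alone. The size factors moved the median of all genes by 0.23. Among the 23 genes past 2-fold, 12 stayed past it on their own side and 18 kept their direction under all 22 alternatives. With 1 library there was no replicate to leave out. No paired analysis was possible because the result comes from no test and there was 1 library. Levels below 1 CPM rest on few UMIs, and classes under 50 cells were left out of the order of levels.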
